A study of Macaca mulatta with 17 samples.

Results

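The squamous epithelium, keratin and cornification genes are a set of 44 genes chosen by name for their place in stratified squamous epithelium, the layered lining of skin, vagina and outer cervix. Of the 44 genes, 43 had a probe on the array, whose 20217 probes carried 16572 distinct gene names, and SERPINB4 was not analysed here. The set was divided by layer into 7 basal genes, 28 suprabasal genes (27 with a probe) and 9 genes used in several layers. The rule used names and no measured value, although the set was proposed with earlier results of these data known. Where a gene had more than 1 probe, the probe with the highest mean signal was used, which concerned KRT6A, SERPINB3 and CSTA. TP63 was listed on the array under its older symbol TP73L.

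RNA came from uteri of female rhesus macaque fetuses, with 1 array for each fetus and 17 arrays in all. The dams had eaten a daily fruit treat that held ethanol vehicle or deuterated bisphenol A (BPA), a monomer of plastics with weak estrogenic activity, at 400 µg per kg. The GD100 groups (5 control and 5 BPA fetuses) were dosed from gestational day 50 and delivered by caesarean section on day 100. The GD165 groups (4 control and 3 BPA fetuses) were dosed from day 100 and delivered vaginally at about day 165, and fetuses that were stillborn were not measured. Age, the window of dosing and the mode of delivery change together between the GD100 and GD165 groups and cannot be told apart. The uterus had been divided lengthwise, so each frozen side ran from the fundus to the cervix and held all tissues of the organ. The labels number the fetuses within each group, and the GD165 controls are replicates 1, 3, 5 and 6.

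Stratified squamous epithelium renews itself from a basal layer, whose cells carry keratins KRT5 and KRT14 and depend on the transcription factor TP63. Cells that leave this layer change their keratins, to KRT1 and KRT10 in skin and to KRT4 and KRT13 in moist linings, are held together by desmosomes and finally build a cornified envelope of crosslinked proteins under the cell membrane. In the female tract this epithelium lines the vagina and the outer cervix, whereas the uterine body is lined by a simple columnar epithelium that carries KRT7, KRT8, KRT18 and KRT19.

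Levels below are log2 signals scaled so that the arrays share their 75th percentile, and each probe has its own brightness, so levels are compared between animals and not between genes. On each array 83.8 to 89.0% of spots exceeded background clearly, and Pearson's r across all probes was 0.974 to 0.995 between arrays. The columnar keratin KRT18 was between 15.10 and 16.87 on the 17 arrays, and on every array 12 of 12 smooth muscle genes and 22 of 24 columnar epithelial genes were well above background. The number of animals limits the precision of each value. Tests were limma's moderated tests on all 17 arrays, two-sided, with the Benjamini-Hochberg adjustment over 20217 probes and a threshold of 0.01. A gene is said to rise or fall only where it passed that threshold. In RNA from whole tissue, fewer cells of a type and less RNA in each cell cannot be told apart.

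The probes that carry the results below were 60 bases long. Their first 30 bases are shown for the genes on which most values turn, as the array design lists them from 5′ to 3′:
KRT6A, probe used: gtacaaagcctgtatctctgtgataatttc
KRT6A, second probe: tcaccatcagatcaacctctgattttacat
KRT6B: catctgacaaatcagttgtcctgatcttct
KRT5: ccacagcatggtccctgctgacacaagaac
KRT13: ctctttggtttctcaacttctctaccccaa
PPL: agctcttgtaactcttcatagcagcagatg
PI3: atgcccaagcctggagctgcctgtctcatc
The longest run of bases that the KRT6A and KRT6B probes shared was 7, and the 2 KRT6A probes shared at most 5, so they read separate stretches of the transcript. The KRT14 and KRT17 probes shared a run of 8 bases at most. These runs compare probes only with each other. Whether a probe also binds the transcript of a close keratin relative was not tested. The 2 SERPINB3 probes were the same 60 bases and therefore give no separate measurement.

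CSTA, a cysteine protease inhibitor of the cornified envelope, is shown because it was well above background on no array (0 of 17) with either of its probes. In these first 30 bases its probes differed at T17C, counted from 1 at the 5′ end with the base of the probe used given first, and the capital marks that base:
CSTA, probe used: aaacaaatgagacttaTggaaaattggaag
CSTA, second probe: aaacaaatgagacttaCggaaaattggaag
The level of CSTA is therefore only bounded from above here.

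Transcripts of both layers were measured in every group, also at GD100. In all, 28 of the 43 genes were well above background on all 17 arrays, 6 of 7 basal, 14 of 27 suprabasal and 8 of 9 genes of several layers. Another 14 genes were well above background on 1 to 16 arrays. Of these, the desmosomal cadherins DSG1 and DSG3 and the cornified envelope protein SPRR3 were detected only in GD165 control replicate 6. Loricrin (LOR), the major envelope protein of skin, was detected on 2 arrays. The count of genes detected per array ran from 30 to 39, and the highest count was that of GD165 control replicate 6. The skin keratin KRT10 was at 15.42 to 15.73 on the 17 arrays, the narrowest spread seen among the keratins of the set. Its usual partner in skin, KRT1, was at 3.47 to 5.36 and reached a level well above background on 7 arrays, all at GD100.

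**Figure D1:**
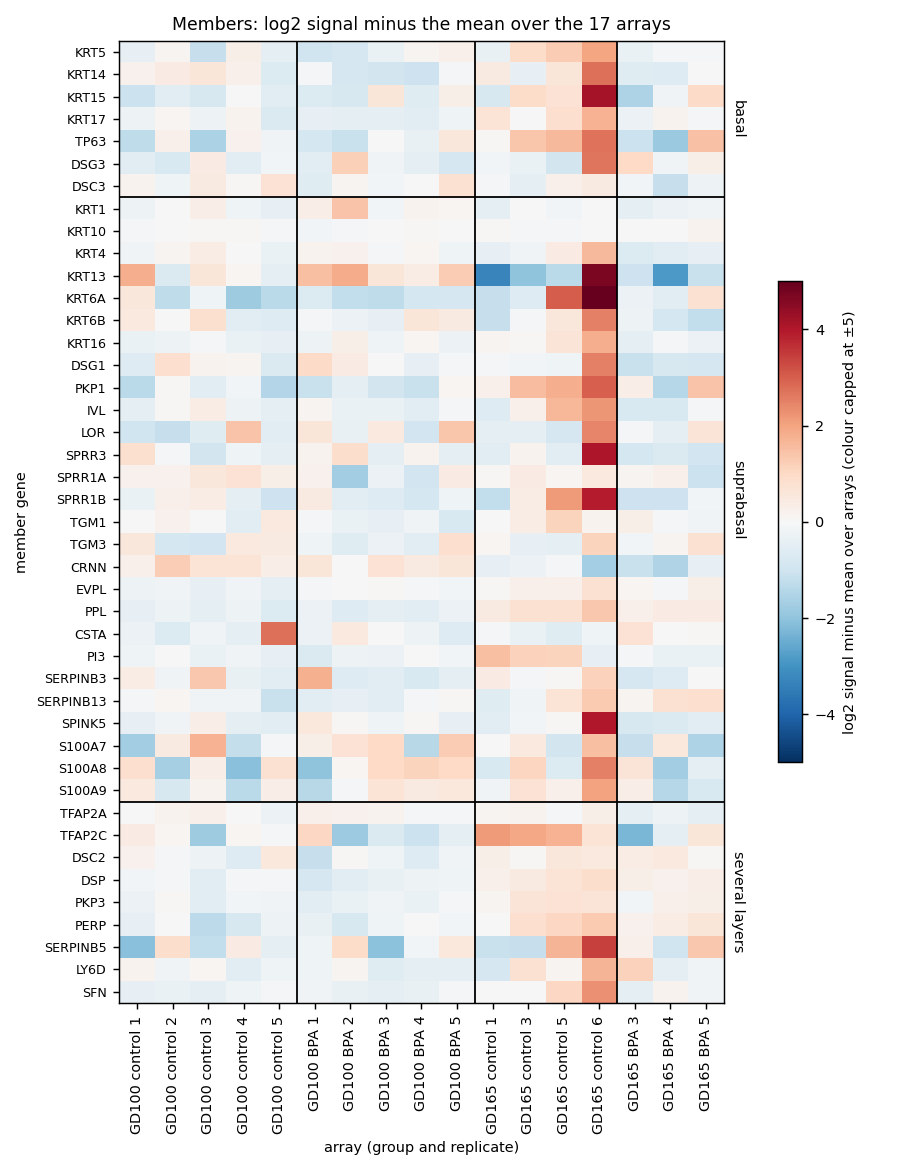
Each row is 1 of the 43 genes with a probe, each column 1 of the 17 arrays, and colour is the log2 signal minus the gene's mean over the arrays, capped at 5 in either direction. Lines separate the 4 groups and the 3 layers; the column of GD165 control replicate 6 is red for most genes, and KRT13 is blue in the other GD165 columns.

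One animal stood apart. GD165 control replicate 6 had the highest level of the 17 arrays for 30 of the 43 genes, where it was the highest for 12.0% of all probes. It exceeded every other array by more than 1 log2 unit for 19 genes, against 0.584% of all probes. By more than 2 log2 units it did so for 6 genes, against 32 of all 20217 probes. By its spots the array was like the others, with 87.0% well above background and a signal to background ratio of 23.7, within 17.5 to 24.2. The lowest Pearson's r between any 2 arrays, 0.974, was one of this array's, and its highest was 0.989. Differences that this animal moved by more than 1.5 times are given below with and without it.

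The 19 genes were KRT14, KRT15, KRT4, KRT13, KRT6A, KRT6B, KRT16, TP63, DSG1, DSG3, PKP1, LOR, SPRR3, SPRR1B, SERPINB5, SPINK5, S100A8, S100A9 and SFN, which are genes of basal and of upper layers. KRT6A, a keratin induced in activated suprabasal cells, was at 13.28 in replicate 6 and at 8.52 in the next highest array, GD165 control replicate 5. The second KRT6A probe gave 10.39 and 5.58 on the same arrays, the same order at a distance of 4.80 log2 units, beside 4.76 with the first probe. KRT13, the suprabasal keratin of mucosa, was at 15.59 against at most 12.76 elsewhere, and KRT15, a basal keratin, exceeded the next highest array by 3.19. SPINK5, a serine protease inhibitor of upper epithelial layers, was at 10.65 against at most 7.17, and SPRR3 was at 6.65 against at most 3.50. Only 3 genes, TFAP2C, CRNN and PI3, had in replicate 6 the lowest level of the GD165 controls. When replicate 6 was set aside, GD165 control replicate 5 was the highest of the remaining arrays for 17 of the 43 genes. No share over all probes is given for this count. With all 17 arrays, replicate 5 was the highest for 3 genes and for 7.37% of all probes.

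Genes of other tissues moved with this animal as well. Among the 20 probes by which replicate 6 exceeded the other arrays most, 6 belonged to the set (KRT6A with both probes, SPINK5, KRT15, SPRR3 and KRT13) and 5 were genes of fat cells (ADIPOQ, CIDEA, FABP4, GPD1 and PCK1). ADIPOQ, which encodes adiponectin, was at 6.74 in replicate 6 and between 1.05 and 1.88 on the other arrays, under the dimmest probe that any array marked as well above background, at 3.31 to 4.13. The summed level of 14 fat cell genes was 16.38 in replicate 6 and 14.52 to 15.04 on the other arrays. The fat cell list was drawn up after these values had been seen, and its part in the levels of the squamous genes was not tested.

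Between GD100 and GD165, 4 of 8 desmosomal genes and the envelope plakins PPL and EVPL rose in controls. Of the 43 genes, 36 had a higher mean at GD165 and 6 passed the threshold, PKP1, PERP, PPL, PKP3, DSP and EVPL, where 11.5% of all probes passed in either direction and 6.32% passed as higher. No gene of the set (0 of 43) passed as lower, and 17 of 43 had an unadjusted p under 0.05 in limma's test, beside 6687 of all 20217 probes. The median difference of the set was 0.69 log2 units, and that of all probes was 0.00. Without replicate 6 the median of the set was 0.25, 29 of 43 genes had a higher mean at GD165, and 4 genes passed (PPL, EVPL, PKP3 and PI3). In that fit 815 of all 20217 probes passed as higher and 697 as lower. A higher mean at GD165 was then found for 10046 probes, and the median of all probes was −0.002. The same 5 GD100 controls and 4 GD165 controls did not overlap for 9 genes that were higher at GD165, beside 9.51% of all probes, and for 1 gene that was lower, CRNN, beside 9.90%.

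Desmosomal genes accounted for 4 of the 6 rises, and without replicate 6 PKP3 was the only 1 of them to pass. PKP1, the plakophilin of suprabasal desmosomes, was at 7.20, 8.59, 7.97, 8.39 and 7.08 in the GD100 controls and at 8.82, 10.09, 10.35 and 11.54 in GD165 controls 1, 3, 5 and 6. The lowest GD165 control, replicate 1, lay just above the highest GD100 control, and replicate 6 was the highest. The difference was 2.35 ± 0.57 log2 units (SE), 5.10-fold (limma, adjusted p = 0.0085). Without replicate 6 it was 1.90 (adjusted p = 0.0366), and the adjusted p ranged from 0.00371 to 0.0462 over the alternative settings, so this call was among the least stable of the set. PERP, a p53 target needed for desmosome assembly, was at 9.82, 10.23, 8.94, 9.44 and 10.00 at GD100 and at 10.23, 11.08, 11.27 and 11.56 at GD165. GD165 control replicate 1 barely exceeded GD100 control replicate 2, and the difference was 1.35 ± 0.28 (adjusted p = 0.00285).

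DSP, desmoplakin, which ties desmosomes to keratin filaments, was at 13.80, 13.85, 13.43, 13.90 and 13.89 in GD100 controls and at 14.21, 14.38, 14.64 and 14.84 in GD165 controls. Every GD165 control was above every GD100 control, and the rise was 0.74 ± 0.15 (limma, adjusted p = 0.00257). PKP3, a plakophilin found in all layers, was at 11.83, 12.17, 11.56, 11.99 and 11.95 at GD100 and at 12.26, 12.76, 12.86 and 12.78 at GD165, a rise of 0.76 ± 0.15 (adjusted p = 0.00232). Replicate 1 was again the lowest GD165 control and lay just above the GD100 range. Without replicate 6, PKP3 kept its call (0.72, adjusted p = 0.00976), whereas PERP (1.17, adjusted p = 0.0133) and DSP (0.64, adjusted p = 0.0114) missed the threshold narrowly. Over all alternatives the adjusted p was 0.000889 to 0.0141 for PKP3, 0.000802 to 0.0353 for PERP and 0.00138 to 0.0234 for DSP.

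The other 4 desmosomal genes did not pass. DSC2, a desmocollin of simple and stratified epithelia, had means of 12.60 ± 0.46 (SD, n = 5) and 13.00 ± 0.23 (SD, n = 4), and the groups overlapped (difference 0.40, limma, adjusted p = 0.295). DSC3, the basal desmocollin, differed by −0.17 (adjusted p = 0.731) and by −0.30 without replicate 6. DSG1 and DSG3 differed by 0.56 and 0.64 through replicate 6 alone, since the other GD165 controls were not above background.

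Among the 10 cornified envelope genes, the plakins rose. PPL, periplakin, was at 7.95, 8.11, 7.90, 8.12 and 7.70 in GD100 controls and at 8.84, 9.12, 9.15 and 9.70 in GD165 controls. Every GD165 control was above every GD100 control by a clear gap, and the rise was 1.25 ± 0.15, 2.38-fold (limma, adjusted p = 4.55e-05). PPL passed under all 31 alternatives, with differences from 1.08 to 1.37, and without replicate 6 it was 1.08. EVPL, envoplakin, which pairs with periplakin, was at 8.24, 8.33, 8.11, 8.35 and 8.04 at GD100 and at 8.56, 8.78, 8.76 and 9.28 at GD165. The groups did not overlap, and the rise of 0.63 ± 0.13 (adjusted p = 0.00245) was 0.48 without replicate 6, still past the threshold.

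The remaining envelope genes did not follow the plakins together. CRNN, cornulin, a marker of terminally differentiated mucosa, was at 4.26, 5.24, 4.68, 4.69 and 4.31 at GD100 and at 3.59, 3.72, 3.95 and 2.32 at GD165. All GD165 controls were below all GD100 controls, but only 1 of the 4 was well above background, and the difference of −1.24 ± 0.31 missed the threshold (limma, adjusted p = 0.0102). It passed under 8 of the 31 alternatives, among them median scaling, quantile normalization, a filter on dim probes, slide as a random block and a threshold of 0.05. Over all of them the difference was −1.43 to −0.24, the smallest with normexp background correction, and the adjusted p was 0.00265 to 0.076. Involucrin (IVL), an early envelope precursor, was at 5.43, 5.94, 6.24, 5.65 and 5.44 at GD100 and at 5.25, 6.14, 7.54 and 8.08 at GD165. Replicates 5 and 6 were above the GD100 range and replicate 1 was below it (difference 1.01, adjusted p = 0.112, and 0.57 without replicate 6). SPRR1B, a small proline-rich envelope protein, had the same order in the GD165 controls, at 2.98, 4.57, 6.31 and 8.11 (difference 1.53, adjusted p = 0.156, and 0.66 without replicate 6). SPRR1B was well above background in 2 of the 5 GD100 controls. The transglutaminases TGM1 and TGM3, which crosslink the envelope, differed by 0.38 and 0.16, and SPRR1A by −0.13, with overlap in each. The TGM3 and SPRR1A differences were −0.18 and −0.21 without replicate 6.

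Of the 7 basal genes, 6 had a higher mean at GD165 and 5 without replicate 6, although 0 of 7 passed and 4 of 7 had an unadjusted p under 0.05 in limma's test. KRT5, the basal type II keratin, was at 13.08, 13.62, 12.34, 13.78 and 13.00 in GD100 controls and at 13.11, 14.38, 14.73 and 15.46 in GD165 controls. Replicate 1 lay within the GD100 range and the other 3 above it (difference 1.26 ± 0.41, limma, adjusted p = 0.0399). Without GD165 control replicate 1, KRT5 passed at 1.69 (adjusted p = 0.00486), and without replicate 6 it was 0.91 (adjusted p = 0.15), the extremes of its range over the alternatives. TP63 was at 8.90, 10.44, 8.58, 10.38 and 10.02 at GD100 and at 10.23, 11.56, 11.81 and 12.89 at GD165, with replicate 1 again inside the GD100 range. Its difference was 1.96 ± 0.66 (adjusted p = 0.0466). KRT17, a keratin of basal cells and glands, differed by 1.01 (adjusted p = 0.0123).

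KRT14, the partner of KRT5, depended on 1 animal. It was at 10.69, 10.87, 11.09, 10.73 and 9.80 at GD100 and at 10.91, 10.09, 11.07 and 13.23 at GD165. Only replicate 6 left the GD100 range, and the difference of 0.69 (limma, adjusted p = 0.35) was 0.05 without it. KRT15 differed by 1.84 (adjusted p = 0.0954) and by 0.87 without replicate 6.

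**Figure D2:**
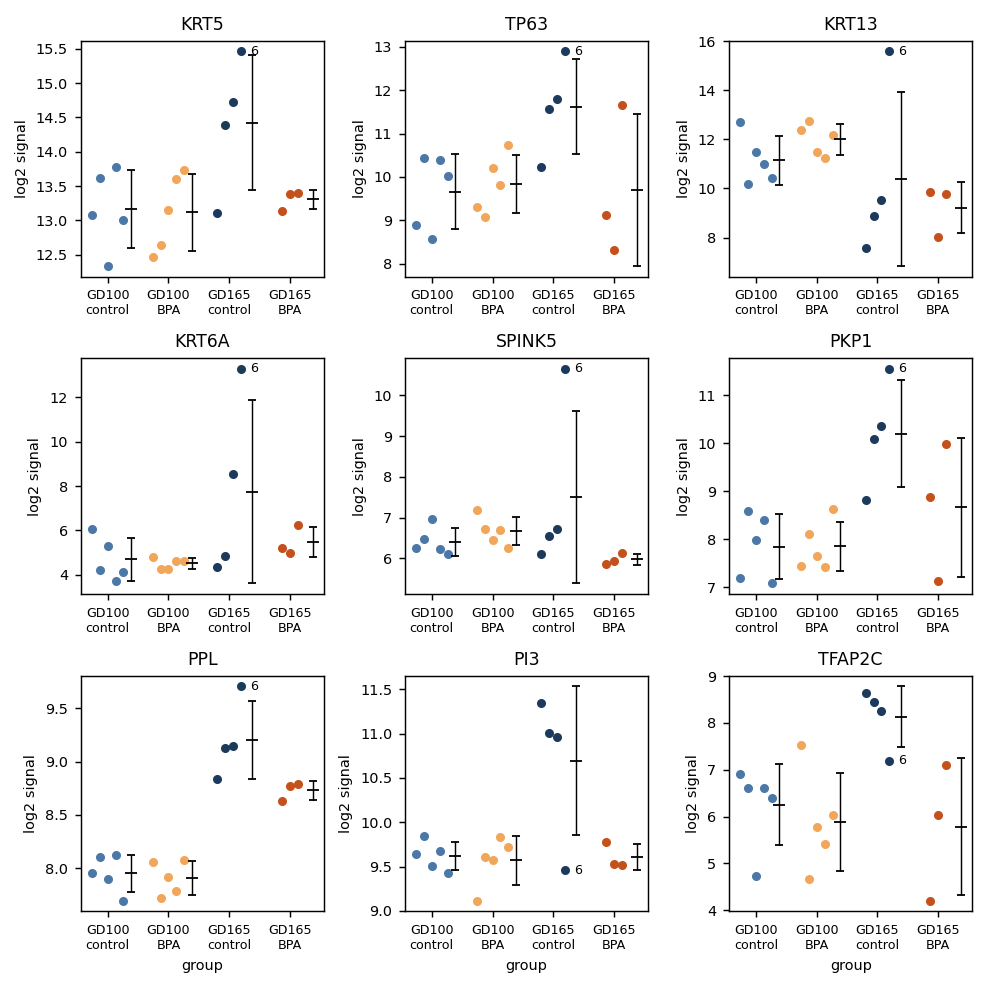
Log2 signal of KRT5, TP63, KRT13, KRT6A, SPINK5, PKP1, PPL, PI3 and TFAP2C, with 1 point for each animal in each of the 4 groups and, to its right, the group mean with an error bar of 1 SD; each panel has its own vertical scale and the 6 marks GD165 control replicate 6. PPL separates the ages with no overlap, KRT13 falls below the GD100 points in every GD165 animal but replicate 6, and PI3 is high only in GD165 controls 1, 3 and 5.

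Of the 7 keratins of differentiating cells, none (0) passed in limma's test and 2 had an unadjusted p under 0.05. KRT13 was at 12.70, 10.17, 11.50, 10.99 and 10.44 in GD100 controls and at 7.59, 8.87, 9.52 and 15.59 in GD165 controls. GD165 controls 1, 3 and 5 were below every GD100 control and replicate 6 was above all of them, so that the difference was −0.76 ± 1.17 (limma, adjusted p = 0.714) with all animals and −2.49 (adjusted p = 0.013) without replicate 6. Without replicate 1 it was 0.17 (adjusted p = 0.938), and the adjusted p over the alternatives lay between 0.013 and 0.938. KRT6A was at 6.07, 4.22, 5.29, 3.73 and 4.14 at GD100 and at 4.33, 4.85, 8.52 and 13.28 at GD165, with replicates 5 and 6 above the GD100 range (difference 3.05 ± 1.30, adjusted p = 0.111). Without replicate 6 the difference was 1.21. KRT6A was well above background in 3 of the 5 GD100 controls.

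KRT16, a partner of KRT6A, was above the GD100 controls in all 4 GD165 controls, at 11.40, 11.35, 11.91 and 13.10 against at most 11.18 (difference 0.95, limma, adjusted p = 0.0207, and 0.56 without replicate 6). KRT4, the partner of KRT13, was at 7.64, 7.95, 8.18, 7.86 and 7.48 at GD100 and at 7.44, 7.64, 8.23 and 9.46 at GD165, and the groups overlapped (difference 0.37, adjusted p = 0.44). KRT6B differed by 0.45 and KRT1 by −0.04, also with overlap. The signs of KRT4 and KRT6B turned without replicate 6, to −0.05 and −0.23, and KRT1 was at −0.08. The means of KRT10 differed by less than the spread between animals, with 15.53 ± 0.07 (SD, n = 5) at GD100 and 15.52 ± 0.08 (SD, n = 4) at GD165.

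Of the AP-2 transcription factors, which act in early surface ectoderm and in keratinocytes, TFAP2C separated the ages and TFAP2A did not. TFAP2C was at 6.91, 6.62, 4.74, 6.61 and 6.40 in GD100 controls and at 8.64, 8.45, 8.26 and 7.20 in GD165 controls. The groups did not overlap, replicate 6 was the lowest GD165 control, and the difference of 1.88 ± 0.63 did not pass (limma, adjusted p = 0.0436). TFAP2A had means of 8.44 ± 0.20 (SD, n = 5) and 8.55 ± 0.16 (SD, n = 4), which differed by less than the spread between animals.

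PI3, elafin, an elastase inhibitor that is crosslinked into the envelope, went against the rest in replicate 6. It was at 9.64, 9.85, 9.5, 9.68 and 9.43 in GD100 controls and at 11.34, 11.01, 10.97 and 9.46 in GD165 controls. Replicates 1, 3 and 5 were above all GD100 controls and replicate 6 was within their range. The difference was 1.07 ± 0.28 (limma, adjusted p = 0.0133), and without replicate 6 it was 1.49 (adjusted p = 5.49e-05). Of the other protease inhibitors, SPINK5 differed by 1.10 with all animals and by 0.04 without replicate 6. SERPINB5, maspin, differed by 1.21, SERPINB13 by 0.58, SERPINB3 by 0.28 and CSTA by −0.54, and the groups overlapped for each of them. Without replicate 6 the differences were 0.31 for SERPINB5, 0.25 for SERPINB13, 0.02 for SERPINB3 and −0.57 for CSTA. These 4 genes were near background. SERPINB5 was well above it in 2 of 5 GD100 and 2 of 4 GD165 controls, and SERPINB13 in 1 and 2. SERPINB3 and CSTA were so in no control (0).

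SFN, stratifin, a 14-3-3 protein of differentiating keratinocytes, was above all GD100 controls in the 4 GD165 controls, at 6.51, 6.51, 7.52 and 8.77 against at most 6.38 (difference 1.15, limma, adjusted p = 0.0257). Without replicate 6 the difference was 0.67 (adjusted p = 0.0416). LY6D, a surface protein of squamous cells, differed by 0.58 with overlap, and by 0.16 without replicate 6. The calcium-binding proteins S100A7, S100A8 and S100A9 differed by 0.43, 0.90 and 0.94, and 0 of 3 had an unadjusted p under 0.05 in limma's test. Without replicate 6 they differed by 0.02, 0.24 and 0.51. S100A8 and S100A9 are also abundant in neutrophils. Of 19 other neutrophil genes 2 rose, ELANE and FPR1, beside 6.32% of all probes. The summed level of the 19 genes was 13.04 to 14.62 in GD100 controls and 12.93 to 13.77 in GD165 controls. The part of neutrophils in the S100 levels was not tested.

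Scores per animal were computed apart for the layers, as the average over a layer's genes of the log2 signal after each gene was centered on the 17 arrays. All genes with a probe entered, including those near background. Well above background on all 17 arrays were 6 of 7 basal, 14 of 27 suprabasal and 8 of 9 genes of several layers. The basal score was −0.45, −0.08, −0.34, 0.06 and −0.29 in GD100 controls and −0.03, 0.29, 0.63 and 2.36 in GD165 controls. Replicate 1 lay within the GD100 range and the other 3 above it. The group means were −0.22 ± 0.20 (SD, n = 5) and 0.81 ± 1.06 (SD, n = 4), a difference of 1.03 that was 0.52 without replicate 6. The suprabasal score was −0.06, −0.18, 0.12, −0.27 and −0.25 at GD100 and −0.33, 0.10, 0.32 and 1.88 at GD165. Here replicate 1 was below all GD100 controls, and the difference of 0.62 was 0.16 without replicate 6. The score of the genes of several layers was 0.11, 0.42, 0.84 and 1.31 in GD165 controls and at most 0.06 in GD100 controls, and its difference of 0.91 was 0.70 without replicate 6. The groups overlapped in the basal and suprabasal scores and not in the score of the several layers.

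**Figure D3:**
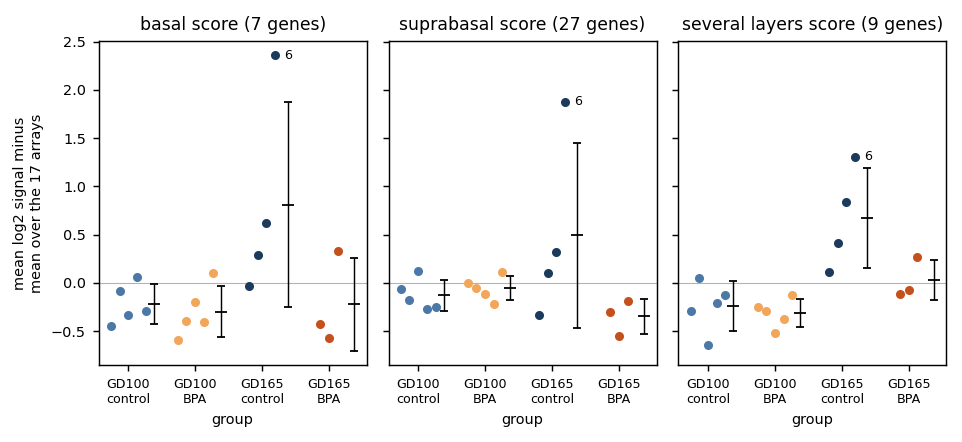
Basal (7 genes), suprabasal (27 genes) and several layers (9 genes) scores, the average over the genes of centered log2 signals, with 1 point for each animal and, to its right, the group mean with an error bar of 1 SD. GD165 control replicate 6 (marked 6) is the highest animal in each panel, at 2.36, 1.88 and 1.31.

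In BPA-exposed fetuses, DSP and PPL rose between GD100 and GD165, and CRNN fell. Of 43 genes, 22 had a higher and 21 a lower mean at GD165, and these 3 passed, where 9.68% of all probes passed. The median difference was 0.03, and that of all probes −0.05. The groups of 5 and 3 animals did not overlap for 6 genes that were higher (KRT6A, DSC2, DSP, PERP, PPL and SERPINB13), beside 11.7% of all probes, and for 8 that were lower (KRT1, KRT4, KRT13, TFAP2A, DSG1, SPRR3, CRNN and SPINK5), beside 15.4%.

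DSP was at 13.13, 13.37, 13.59, 13.72 and 13.76 in GD100 BPA fetuses and at 14.23, 14.17 and 14.29 in GD165 BPA fetuses 3, 4 and 5, a rise of 0.71 ± 0.16 (limma, adjusted p = 0.00677). PPL was at 8.06, 7.72, 7.92, 7.79 and 8.07 and then at 8.63, 8.77 and 8.79, a rise of 0.82 ± 0.16 (adjusted p = 0.0026). Neither gene's groups overlapped, and the GD165 values lay close together. CRNN was at 4.59, 3.97, 4.71, 4.45 and 4.60 at GD100 and at 2.88, 2.49 and 3.57 at GD165, where it was not well above background on any of the 3 arrays, so that it was at least 1.62-fold lower (difference of measured means −1.48, adjusted p = 0.00677). It missed the threshold under 11 of 31 alternatives, with differences from −1.78 to −0.38, and the CRNN difference in controls was −1.24. The calls rest on few animals: without GD165 BPA replicate 4 none (0) of the 3 remained, and without replicate 3 or 5 only 1 gene passed, as it did without GD100 BPA replicate 1 or 3. The calls among all probes also fell, from 1956 to 994 without GD165 BPA replicate 4.

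KRT13 was at 12.38, 12.76, 11.48, 11.25 and 12.17 in GD100 BPA fetuses and at 9.85, 8.01 and 9.79 in GD165 BPA fetuses. All 3 older fetuses were below all 5 younger ones, and the difference was −2.79 ± 1.27 (limma, adjusted p = 0.135). When GD165 control replicate 6, which is not in this comparison but enters the pooled spread, was left out, the same difference had an adjusted p of 0.00549, and in a fit of the compared groups only it was 0.00982 (range over the alternatives 0.00549 to 0.85). Counting both treatments, 6 of the 7 GD165 animals had less KRT13 signal than any of the 10 GD100 animals. KRT1, at 4.27, 5.36, 3.80, 4.11 and 4.02 and then at 3.49, 3.63 and 3.76, stood clearly over background on 4 arrays of the 5 younger fetuses and on none (0) of the 3 older, which gives at least a 1.45-fold difference (adjusted p = 0.087). S100A7 had a difference of −1.10 with overlap, and KRT6A and SERPINB13 differed by 0.96 and 0.88 (adjusted p = 0.68 and 0.101).

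For each of the 7 basal genes the younger and older BPA-exposed fetuses overlapped. KRT5 was at 12.47, 12.64, 13.15, 13.60 and 13.74 at GD100 and at 13.14, 13.38 and 13.40 at GD165. TP63 was at 9.31, 9.08, 10.21, 9.81 and 10.73 and then at 9.12, 8.31 and 11.65, so that GD165 BPA replicate 5 was the highest of the 8 and replicate 4 the lowest. None (0 of 7) passed limma's test, and 0 of 7 had an unadjusted p under 0.05. The basal score was −0.59, −0.39, −0.20, −0.41 and 0.11 at GD100 and −0.42, −0.57 and 0.33 at GD165. The suprabasal score was 0.00, −0.05, −0.11, −0.22 and 0.11 at GD100 and −0.31, −0.55 and −0.19 at GD165, a difference of −0.29.

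At GD165, 38 of the 43 genes had a lower mean in BPA-exposed fetuses than in controls, where 55.3% of all probes did, and no gene (0 of 43) passed limma's threshold. No probe of the 20217 passed either (0%), and 17 of 43 genes and 1740 of all probes had an unadjusted p under 0.05. The median difference was −0.90 for the set and −0.02 for all probes. Without control replicate 6, 33 of 43 genes were lower, the median was −0.48 and 10 genes had an unadjusted p under 0.05. In that fit 10920 of all 20217 probes were lower, their median was −0.02 and 1745 had an unadjusted p under 0.05. These are the same 4 controls that enter the comparison of ages, so a high control such as replicate 6 shifts both comparisons, in opposite directions.

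**Figure D4:**
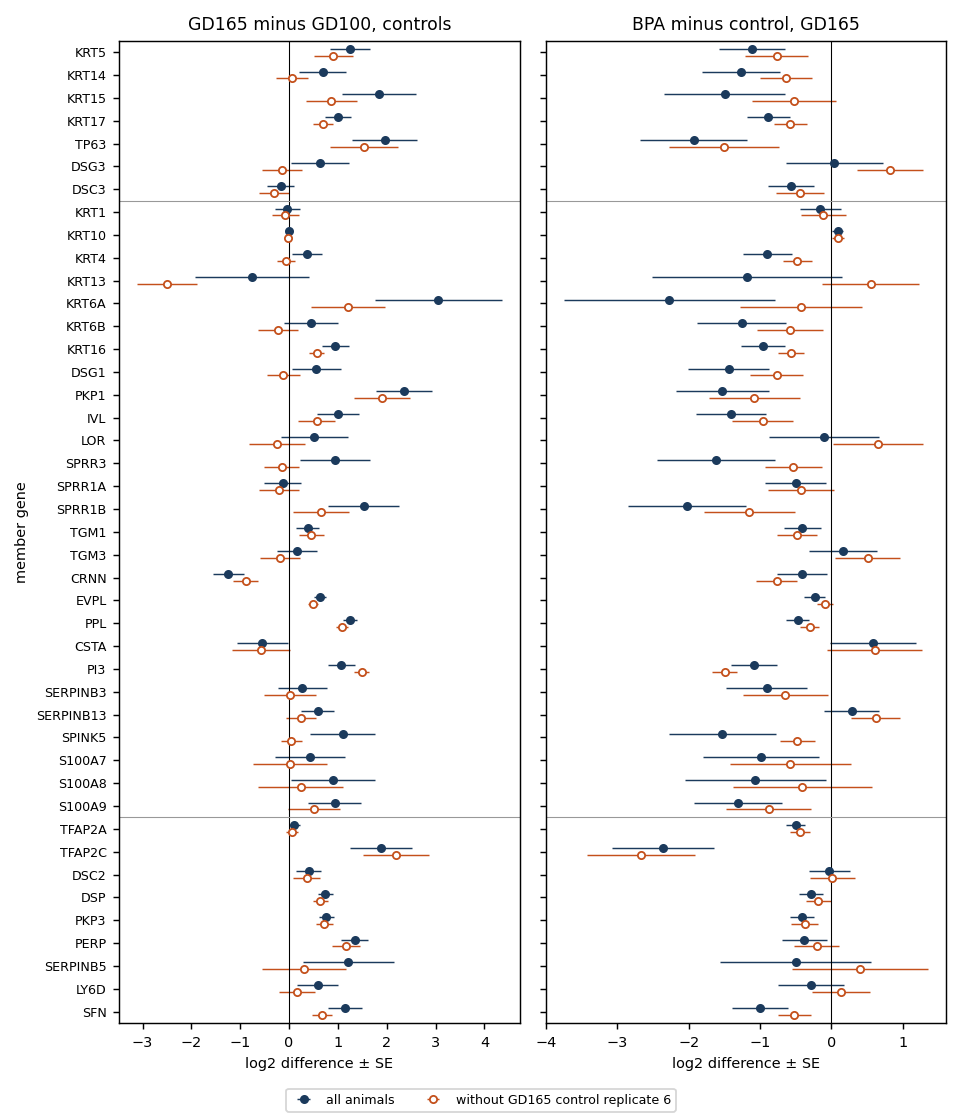
Log2 differences with an error bar of 1 SE for the 43 genes with a probe, GD165 minus GD100 in controls on the left and BPA minus control at GD165 on the right, with all animals (filled) and without GD165 control replicate 6 (open). Most filled points lie right of 0 on the left and left of 0 on the right, and the open points of KRT13, KRT6A and SPINK5 lie far from the filled ones.

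The 3 BPA-exposed fetuses and the 4 controls did not overlap for 7 genes that were lower with BPA, KRT4, KRT16, TFAP2A, TFAP2C, DSG1, SPRR3 and PPL, beside 5.24% of all probes, and for CSTA (2.07% of all probes), which was higher but not above background. DSG1 and SPRR3 were not above background in any BPA-exposed fetus and in only 1 of the 4 controls. TFAP2A had the smallest p, at 8.55, 8.59, 8.33 and 8.71 in controls and at 7.99, 8.18 and 7.96 with BPA, a difference of −0.50 ± 0.13 (limma, adjusted p = 0.386). TFAP2C was at 8.64, 8.45, 8.26 and 7.20 in controls and at 4.20, 6.04 and 7.10 with BPA. The highest BPA-exposed fetus lay just under the lowest control, and the difference was −2.36 ± 0.71, 5.12-fold (adjusted p = 0.413). Without replicate 6 the differences were −0.45 for TFAP2A and −2.67 for TFAP2C. TFAP2C depended on GD165 BPA replicate 3, without which it was −1.57, and it was −3.02 without GD165 BPA replicate 5.

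PI3 was at 9.77, 9.53 and 9.52 with BPA, below controls 1, 3 and 5 (11.34, 11.01 and 10.97) and above control 6 (9.46). The difference was −1.09 ± 0.32 (limma, adjusted p = 0.409). Without control replicate 6 it was −1.50, and PI3 was then the only probe of the 20217 past the threshold (adjusted p = 0.00933, range over the alternatives 0.00933 to 0.76). The levels with BPA lay within those of the GD100 animals of either treatment (9.12 to 9.85), so that among the 17 animals only GD165 controls 1, 3 and 5 had a high level.

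PPL, which rose with age in both treatments, was at 8.63, 8.77 and 8.79 with BPA and at 8.84 to 9.70 in controls, a difference of −0.47 ± 0.17 (limma, adjusted p = 0.479), and of −0.31 without replicate 6. KRT16 was at 10.81, 11.18 and 10.97 with BPA and at 11.35 or above in each control (−0.95, adjusted p = 0.455). KRT4 was at 7.15, 7.30 and 7.42 with BPA, just under the lowest control at 7.44 (−0.90, adjusted p = 0.511). The KRT4 and KRT16 differences were −0.48 and −0.57 without replicate 6.

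The basal genes were lower with BPA in 6 of 7 cases, but their groups overlapped. KRT5 was at 13.14, 13.38 and 13.40 with BPA, above control replicate 1 (13.11) and below the other controls (difference −1.12, limma, adjusted p = 0.532). KRT14 was at 9.87, 9.84 and 10.46 (−1.27), and KRT17 at 10.67, 11.13 and 10.88 (−0.88). Both were closer to 0 without replicate 6, at −0.63 and −0.58. TP63 was at 9.12, 8.31 and 11.65 (−1.93 ± 0.75, adjusted p = 0.516), with BPA replicate 5 within the range of the controls. Among the suprabasal genes, KRT6A was at 5.19, 4.98 and 6.25 (−2.27 ± 1.48, and −0.43 without replicate 6), and IVL at 5.12, 5.12 and 5.79 (−1.41 ± 0.49, and −0.97 without it). KRT13 changed sign, from −1.18 with all controls to 0.55 without replicate 6. SERPINB13, TGM3 and KRT10 differed by 0.29, 0.17 and 0.09, and by 0.62, 0.51 and 0.10 without replicate 6. SERPINB13 and TGM3 were each detected in 2 of the 4 controls and in all 3 BPA-exposed fetuses.

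The basal score was −0.42, −0.57 and 0.33 with BPA, a mean of −0.22 ± 0.48 (SD, n = 3). Controls 1 and 3 lay among these values and controls 5 and 6 above them. The difference between BPA and control was −1.03 for the basal score and −0.52 without replicate 6. For the suprabasal score it was −0.84 and −0.38, and for the genes of several layers −0.64 and −0.43. The groups overlapped in each of the 3 scores.

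At GD100 the set did not separate the treatments. Of 43 genes, 21 had a higher and 22 a lower mean with BPA, 0 passed limma's threshold (0% of all probes), and 2 had an unadjusted p under 0.05, beside 767 of all probes. These 2 were SPRR1A and EVPL. SPRR1A was at 4.14, 4.15, 4.51, 4.66 and 4.26 in controls and at 4.16, 2.21, 3.66, 2.99 and 4.37 with BPA (difference −0.87, adjusted p = 1.0), and it was well above background in 2 of the 5 BPA-exposed fetuses. EVPL was at 8.46, 8.53, 8.55, 8.46 and 8.36 with BPA against at most 8.35 in controls, a difference of 0.26 (adjusted p = 1.0) without overlap, as for 0.381% of all probes. KRT14 was at 10.43, 9.64, 9.57, 9.46 and 10.41 with BPA (−0.74), and KRT13 had a mean of 12.01 ± 0.63 (SD, n = 5) with BPA and 11.16 ± 1.0 (SD, n = 5) in controls (0.85), with overlap for both. TGM1 differed by −0.40, S100A8 by 0.59 and S100A7 by 0.54. The basal and suprabasal scores differed by −0.08 and 0.07.

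The difference between the BPA effects at the 2 ages was tested as an interaction. No gene of the set (0 of 43) and no probe (0% of 20217) passed in limma's fit, and 7 genes of the set and 1584 of all probes had an unadjusted p under 0.05. The smallest p was that of TFAP2A, whose BPA effect was lower by 0.59 ± 0.17 log2 units at GD165 than at GD100 (effect difference −0.59, adjusted p = 0.52). For TP63, TFAP2C, KRT16 and PI3 the effect differences were −2.09, −1.99, −1.16 and −1.04. Without GD165 control replicate 6 that of PI3 was −1.45 (adjusted p = 0.198) and that of KRT16 −0.77. An effect on this set at one age and not at the other was thus not established at the threshold.

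With slide as a fixed block in limma's fit, 4 genes passed between ages in controls (DSP, EVPL, PKP1 and PPL) and 0 in BPA-exposed fetuses, and with slide as a random block 7 and 3 did. Of all 20217 probes, 1233 and 512 passed with the fixed block and 2474 and 1846 with the random block. Single slides held too few animals for tests. Between GD165 and GD100 controls that shared a slide, the median difference over the 43 genes was 0.09 on one slide (replicates 3 at each age) and 0.04 on the other, each from 1 animal against 1, and neither held GD165 control replicate 6. On these slides PPL differed by 1.22 and 1.14 and KRT13 by −2.62 and −2.85. For BPA at GD165, 2 BPA-exposed fetuses shared a slide with control replicate 1, which had the lowest basal score among the controls. There 26 of 43 genes were lower with BPA, and the median difference was −0.08, with −1.69 for PI3 and −3.52 for TFAP2C. For BPA at GD100, the medians on 3 slides were −0.09, −0.03 and −0.08.

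Other lists of epithelial genes were read beside the set. Of 24 columnar epithelial genes, 23 had a higher mean at GD165 in controls and 15 rose, where 6.32% of all probes did. Among the 15 were KRT7 (1.11 ± 0.22, limma, adjusted p = 0.00199), KRT18 (0.85, adjusted p = 0.00504) and KRT19 (0.71, adjusted p = 0.00392). KRT8 did not rise, with means of 4.72 ± 0.49 (SD, n = 5) at GD100 and 4.51 ± 0.48 (SD, n = 4) at GD165 (−0.21, adjusted p = 0.619). These levels are close to the dimmest signals marked as well above background (3.31 to 4.13). KRT7 was at 12.24, 11.99, 12.10 and 12.25 in the GD165 controls, so that replicate 6, which stood apart for squamous genes, was like the others. Of 11 genes of the hemidesmosome and its laminin, which fix basal cells to the basement membrane, 7 rose, led by ITGB4 (1.20 ± 0.16, adjusted p = 0.0001). In a further list of 55 squamous genes outside the set, 7 rose with age and none (0) fell, while 25 had an unadjusted p under 0.05 in limma's test, beside 6687 of all 20217 probes. The largest of these rises were those of SERPINB2 (2.30), ABCA12, a lipid transporter of keratinocytes (2.01), MAL (1.95), LGALS7 (1.74) and the transcription factor GRHL1 (1.20).

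Urothelium, the lining of the bladder, also carries KRT5 and TP63 in its basal cells. UPK1B, a uroplakin, was at 12.56 to 13.70 in GD100 controls and at 15.40 to 17.03 in GD165 controls, a rise of 3.00 ± 0.30 (limma, adjusted p = 1.77e-05). Of 4 urothelial genes UPK1B was the only one to pass, where 11.5% of all probes passed. With BPA at GD165 it was at 15.54, 16.03 and 16.21. Its part in the levels of the squamous genes was not tested.

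Some genes of muscle, of position and of fat also passed the threshold between ages in controls. Of 24 skeletal muscle genes, 8 rose in controls. Their score was highest in GD165 control replicate 5 (3.08) and GD165 BPA replicate 5 (2.67). These animals also had the highest basal score of their group, other than GD165 control replicate 6. Replicate 6 did not share this order: its basal score was the highest of all (2.36), and its muscle score was 1.11. Of 12 smooth muscle genes 5 rose, of 12 posterior HOX genes 2 fell, and of 14 fat cell genes 3 rose, among them FABP4 (3.57 ± 0.84, limma, adjusted p = 0.00676). Over all probes 6.32% rose and 1051 of 20217 fell. FABP4 was at 10.59, 10.19 and 11.15 in GD165 controls 1, 3 and 5 and at 14.86 in replicate 6. The fat cell list was drawn up after the values of single animals had been seen. Replicate 6, which enters this comparison, was the highest array for 10 of its 14 genes. The rises of the fat cell genes are therefore a description and not an independent test. What part these tissues had in the squamous genes was not tested.

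With BPA at GD165, none (0) of the genes of these lists passed limma's threshold. Means were lower with BPA for 20 of 24 columnar genes, 9 of 11 hemidesmosome genes, 41 of 55 other squamous genes, 16 of 19 neutrophil genes, 19 of 24 skeletal muscle genes and 13 of 14 fat cell genes, beside 55.3% of all probes. Of these lists, in the same order, 5, 1, 11, 4, 1 and 1 genes had an unadjusted p under 0.05. GD165 control replicate 6 was the highest array for 7, 6, 23, 2, 1 and 10 of their genes, in the same order, and for 12.0% of all probes. The counts of these lists are given only with this animal included. The fat cell list was drawn up after its values had been seen, so the fat cell count is not an independent result. Means were lower for 3 of 4 urothelial, 10 of 12 smooth muscle and 4 of 12 posterior HOX genes, and 1, 0 and 6 genes of these lists had an unadjusted p under 0.05. KRT19 was at 14.69, 14.95 and 14.98 with BPA and at 15.33 to 15.90 in controls, without overlap (−0.78 ± 0.17, limma, adjusted p = 0.296). KRT18 was at 15.78, 16.15 and 16.06 with BPA and at 16.33 to 16.87 in controls, also without overlap (−0.58, adjusted p = 0.5). The groups lay apart in this direction for 5.24% of all probes. KRT8 and KRT7 had differences of −0.44 and −0.01, with overlap.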

How the data were processed

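Cy3-labeled cRNA from the total RNA of single uteri was measured on Agilent rhesus macaque arrays. The authors extracted signals with Agilent Feature Extraction 9.5 at 1-color defaults, and the deposited values are linear intensities after background subtraction, without scaling between the 17 arrays. The deposited table of all arrays held the same values in 711467 of 711467 cells (tolerance 0).

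A probe's level was the average log2 signal of its 2 spots, with control spots and spots marked as outliers left out (20217 probes). Arrays were aligned at their 75th percentile, placed at 12.62, the mean over the arrays. A probe was well above background where both spots were so marked. The test, limma 3.58.1 in R 4.3.3 with 4 groups and no other terms, replaced the error-weighted analysis of variance of the study, whose threshold of 0.01 was kept. The script was tested on simulated data. Python 3.11.15, pandas 2.3.3 and matplotlib 3.10.9 were used for scores and figures. For a probe near background throughout the dimmer group, the fold is a bound, taken against the dimmest signal marked as well above background on each array.

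The genes of the set, the other gene lists and the tests were chosen with earlier results of these data known, and the fat cell list after the values of single animals had been seen. Values in each animal are given for genes past the threshold in any comparison, for the largest rises and falls and for defining genes of each layer. Lists of columnar, hemidesmosome, other squamous, urothelial, neutrophil, muscle, posterior HOX and fat cell genes were read beside them. Genes were named from the probe descriptions. Replicate numbers did not pair the animals, since correlations of same-numbered animals were −0.17 to 0.12. Alternatives changed the background correction, scaling, filter, outlier spots, samples in the fit, moderation, weights, slide or replicate block, threshold, probe of a gene or animals. One animal gave 1 array, so the tests set each difference against the spread between animals. That spread was pooled over the 4 groups and moderated over all probes.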

Additional observations from a re-analysis of the deposited data

Results flagged for a closer look

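Within groups of 4 or 5 animals, 10 of 125 sets of levels held 1 animal whose distance from the nearest other animal was large against the range of its group, and chance alone gives about 5% of such sets, or 6.2. Of these, 4 belonged to GD165 control replicate 6, in each case as the highest, with levels of 5.19 for DSG1, 4.81 for LOR, 6.65 for SPRR3 and 10.65 for SPINK5. DSG1, LOR and SPRR3 were not above background in the other GD165 controls. GD165 control replicate 1 was low for PKP3, at 12.26, with the other controls at 12.76 to 12.86. GD100 control replicate 3 was low for TFAP2C, at 4.74, with the others at 6.40 to 6.91, and for DSP, at 13.43, with the others at 13.80 to 13.90. GD100 control replicate 5 was low for SERPINB13, at 2.56. GD100 BPA replicate 5 was high for TGM3, at 5.15, and GD100 BPA replicate 1 for SERPINB3, at 4.37, the only array on which SERPINB3 was well above background. Each level is a log2 signal of 1 array, and the cause was not tested for any of them.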

How the results depend on the processing

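Each count of genes past the threshold was recomputed under 31 alternatives, and under 30 for the interaction. Between GD165 and GD100 controls, where 6 genes passed, 3 passed without scaling between arrays, 1 (PPL) in a fit of the compared groups only, and 14 at a threshold of 0.05, and the count was 4 to 8 when each animal was left out. Of all 20217 probes, 2328 passed in the main fit and, in the same order, 1531, 1172, 4279 and 1512 to 2370. With the replicate number as a block, 3 genes passed (PI3, PKP3 and PPL), beside 958 of all probes, and no other count of calls moved by more than 1.5 times under the block. In BPA-exposed fetuses, where 3 passed, 1 passed without scaling, 0 with slide as a fixed block and 0 to 4 when each animal was left out. Of all probes, 1956 passed in the main fit and, in the same order, 1635, 512 and 994 to 2131. The count for BPA at GD165 was 0 to 1 when each animal was left out, the 1 being PI3 without GD165 control replicate 6, and 0 under the other alternatives. The counts for BPA at GD100 and for the interaction were 0 under all. The KRT13 difference between ages in controls turned to 0.17 without GD165 control replicate 1 and was −2.49 to 0.17 over the animals left out. The differences between ages in the basal score were 0.52 to 1.31 in controls and −0.20 to 0.26 with BPA, and in the suprabasal score 0.16 to 0.89 in controls. With BPA at GD100 the suprabasal difference was −0.01 to 0.13, so that the signs of this and of the basal difference with BPA were not settled. Each score difference moved by less than 1 SD between animals, an SD that in GD165 controls includes replicate 6. The cause was not tested. Genes near background are limited by signal: 28 to 29 of 43 were well above background on every array used.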
